A study of Mus musculus with 12 samples.

Results

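The genes described here encode the AMPA-type glutamate receptor and its main partner proteins. They were taken by symbol from a table of gene counts: the subunit genes Gria1, Gria2, Gria3 and Gria4, the TARP genes Cacng2, Cacng3 and Cacng8, and the cornichon genes Cnih2 and Cnih3. These are 9 of the 24015 rows of the table, and all 9 were among the 15668 genes with enough counts to be tested. The libraries are nuclear RNA from sorted mouse hippocampal nuclei, in 4 groups of 3 libraries, whose titles read Basal, Early, Late and Reactivated. All mice carried ArcCreERT2, a Cre recombinase that needs tamoxifen and is driven by the Arc gene, and a floxed-stop eYFP reporter in R26R, and the genotype field reads +/+ for each. All groups therefore share a reporter that marks neurons with Arc activity while the drug is present. All received 4-hydroxytamoxifen 1 h before contextual fear conditioning, after 24 h in darkness. Tissue was collected 1.5 to 2 h later, or on day 5 after 48 h more of darkness, with part of the later mice first returned to the fear-inducing cue. The labels give 10000 nuclei per condition from pools of 10 to 12 mice, which were sorted by NeuN, Arc and GFP antibodies after fixation in 1% paraformaldehyde. The treatment field is the same for all 12 libraries, so the groups rest on the titles, and the labels used here tie neither a sorting gate nor an age to a title.

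AMPA receptors are channels of 4 subunits that carry most fast excitatory transmission in the hippocampus, and their number at the synapse changes when synapses strengthen or weaken. Gria2 is the subunit whose edited pore makes the channel nearly impermeable to calcium, so the balance of Gria1 and Gria2 bears on which ions pass. TARPs bind the subunits, bring them to the surface and synapse and slow the closing of the channel. Cornichon proteins guide subunits out of the endoplasmic reticulum and also slow the channel.

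Short stretches of the coding sequences show what the subunits share and how the TARPs end. They were read from GENCODE M21 transcripts on the mouse build GRCm38 and are written 5′ to 3′ on the strand of the gene. The first 4 lines show the pore loop, with the codon of the Q/R site in capitals (codons 600, 607, 612 and 608 of Gria1 to Gria4, counted from the start codon). In Gria2 RNA this glutamine codon is the one edited to arginine, and the counts analysed here do not measure editing.
Gria1: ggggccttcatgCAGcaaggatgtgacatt
Gria2: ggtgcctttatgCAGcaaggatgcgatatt
Gria3: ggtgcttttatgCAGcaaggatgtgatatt
Gria4: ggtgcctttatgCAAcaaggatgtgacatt
The next 3 lines show the last 10 codons of the TARP genes, with the last 4 codons in capitals. They encode the tail that binds PDZ domains of the scaffold protein PSD-95.
Cacng2: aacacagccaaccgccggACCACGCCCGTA
Cacng3: aatccggccaacagacgtACCACGCCTGTC
Cacng8: aacacgctcaacaggaaaACCACGCCCGTG
The genes lie on different chromosomes apart from Cacng3 and Cacng8, both on chromosome 7. Gria1 is on chromosome 11, Gria2 on 3, Gria3 on X, Gria4 on 9, Cacng2 on 15, Cnih2 on 19 and Cnih3 on 1. Between 0% and 0.182% of the 50-base words in the transcripts of a gene also occurred in another of the 9, so little sequence is shared that could move reads from one to the other.

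Cnih3 was the gene of the 9 that separated Late from Reactivated most widely. Its normalized count (the count divided by the relative effective library size) was 238 ± 26.6 in Late against 464 ± 64.9 in Reactivated (SD, n = 3 each), a 1.95-fold rise. Cacng8 was highest in Late, at 740 ± 60.4 against 333 ± 34 in Basal. Under the scaling used, Gria1 was highest in Late and Gria2 lowest in Reactivated. Gria4, Cacng3 and Cnih2 passed in no comparison of the main test. The plot of all 9 genes by library shows these levels.

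**Figure D1:**
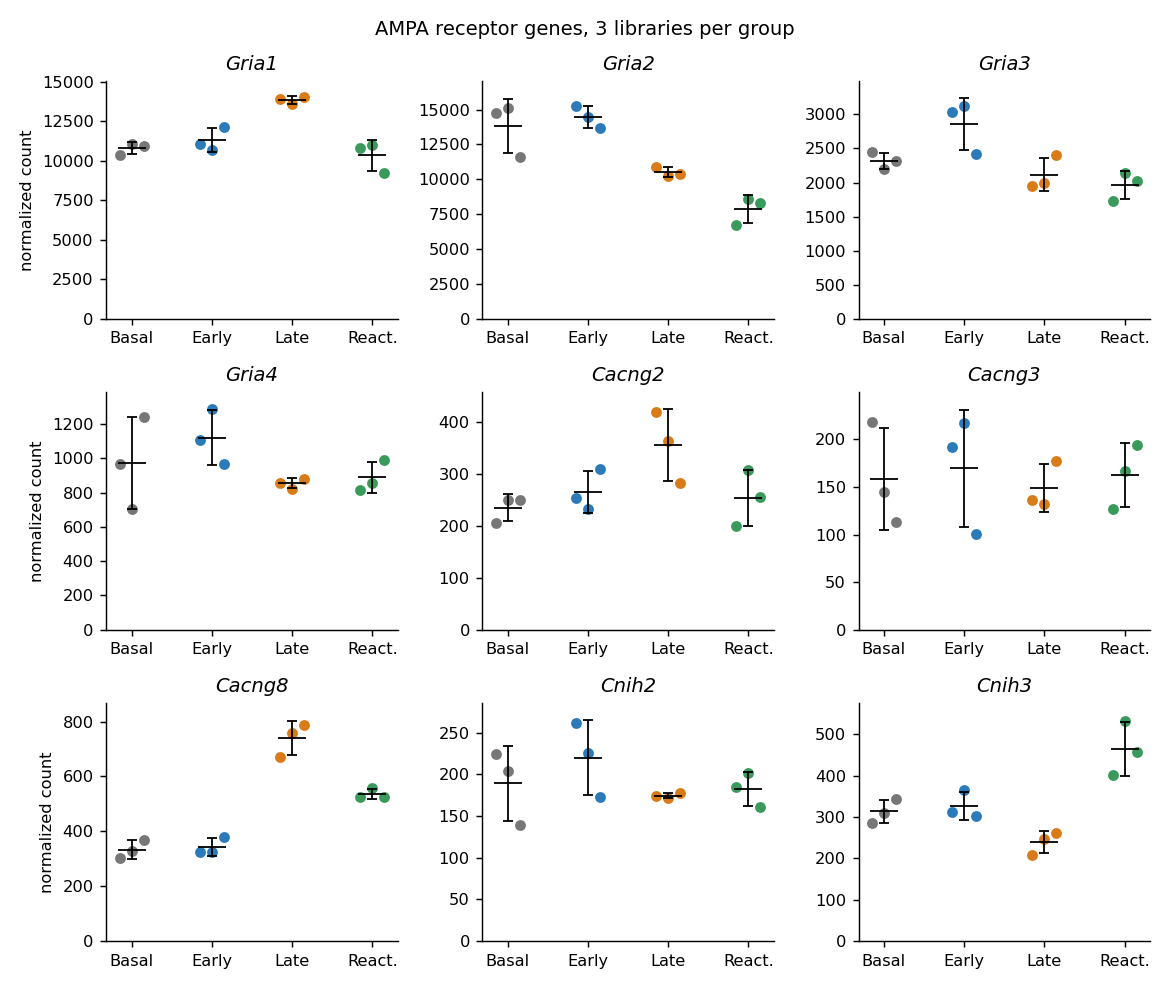
Normalized counts of the 9 AMPA receptor genes (y axis from 0, its own range in each panel) in the groups Basal, Early, Late and Reactivated. Points are libraries, horizontal marks the mean and bars the SD of 3 libraries. Cacng8 is highest in Late, where its libraries lie at 673 to 789, and Cnih3 in Reactivated, at 402 to 531.

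Total counts were 4838166 to 11120255 per library, and the 9 genes had between 92 and 21006 raw counts in a library. The groups differed in RNA composition and in the trend of fold changes with GC content. Rn45s, the ribosomal RNA precursor, took 4.72% to 12.9% of the counts in Basal and Early libraries and 18.8% to 36.5% in Late and Reactivated libraries. Lars2, the mitochondrial leucyl-tRNA synthetase gene, took 3.54% to 4.61% in Reactivated and 0.182% to 1.19% in the other libraries. One alternative fit removed its row with those of structural RNA, and whether its reads are messenger RNA was not tested. Malat1, a long nuclear RNA, took 6.16% to 8.13% in Basal and Early and 2.97% to 4.79% in Late and Reactivated. Fold changes moved with the GC content of the transcript. Tested genes were split by GC content into 10 bins. In the lowest bin the median log2 fold change was -0.57 in Late against Basal and -0.42 in Reactivated against Basal, and in the highest bin it was 0.50 and 0.49. In Reactivated against Late these medians were 0.15 and -0.07, and in Early against Basal 0.01 and 0.02. The GC content of the longest transcript was 36.8% for Gria2, 39.8% for Gria3, 44.3% for Gria4, 48.5% for Gria1, 51.2% for Cacng2, 53.3% for Cnih3, 54.6% for Cacng3, 62.3% for Cnih2 and 65.1% for Cacng8. Values from a fit that removes the trend with GC content within each library are therefore given for the 9 genes, beside the results they change. Levels, fold changes and calls of other genes are given without that correction, so this trend is still in them.

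**Figure D2:**
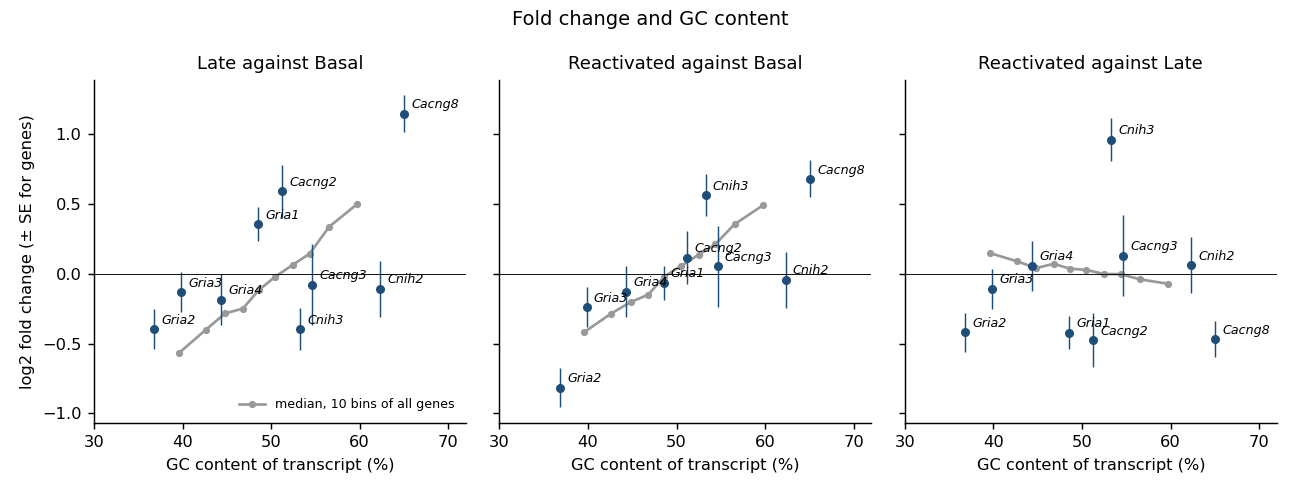
Log2 fold change (y axis, ± SE for the 9 genes) against GC content of the transcript in percent (x axis) for 3 comparisons. The grey line joins the medians of 10 GC bins of all tested genes, placed at their median GC content, and climbs from -0.57 to 0.50 in Late against Basal but not in Reactivated against Late.

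Each pair of groups was compared with edgeR's quasi-likelihood test, with p-values adjusted after Benjamini and Hochberg across the 15668 genes. A gene that rose or fell had an adjusted p below 0.05. The 6 comparisons share groups, so they are not independent of each other, and p-values measure the spread between libraries. The labels quoted above do not say whether each library is its own pool of mice. In Early against Basal 0 of the 9 genes passed, where 6.03% of all genes did (3.36% higher and 2.66% lower). At an unadjusted p below 0.05 the count was also 0 with edgeR, with Gria3 nearest at 0.0507. A p above the threshold does not show that the levels were alike. DESeq2 called 0, and limma voom with array weights called 2, Gria3 and Gria4. In Late against Basal 3 rose and 2 fell, where 49.1% of all genes passed (25.4% higher and 23.6% lower). In Reactivated against Basal 2 rose and 1 fell, beside 39.4% of all genes (20.6% higher and 18.8% lower). In Late against Early 1 rose and 3 fell, beside 42.3% of all genes (22.0% higher and 20.4% lower). In Reactivated against Early 2 rose and 2 fell, beside 26.2% of all genes (13.5% higher and 12.7% lower). In Reactivated against Late 1 rose and 3 fell, beside 22.6% of all genes (10.3% higher and 12.3% lower). The joint test over the 4 groups passed for 5 of the 9 (Gria1, Gria2, Gria3, Cacng8 and Cnih3), beside 58.6% of all genes. Cacng2 had an adjusted p of 0.0565 in that test. When the Rn45s share was added to the model, 0 of the 9 passed in each comparison with Basal or Early, and 2 in Reactivated against Late, Gria2 and Cnih3. Of all genes, 8.28% passed in that model in Early against Basal, 1.31% in Late against Basal, 3.99% in Reactivated against Basal, 0.60% in Late against Early, 0% in Reactivated against Early and 11.9% in Reactivated against Late. The share goes with the groups, and its effect and that of the group cannot be told apart. Without that term the shares among the 9 were close to those of all genes in the test over the 4 groups and in Late against Basal, and no count is read as particular to these genes. The median log2 fold change of the 9 was 0.11, -0.11, -0.04, -0.33, -0.13 and -0.11 in these 6 comparisons in the order given, and that of all genes 0.01, -0.03, 0.02, -0.03, 0.03 and 0.03.

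**Figure D3:**
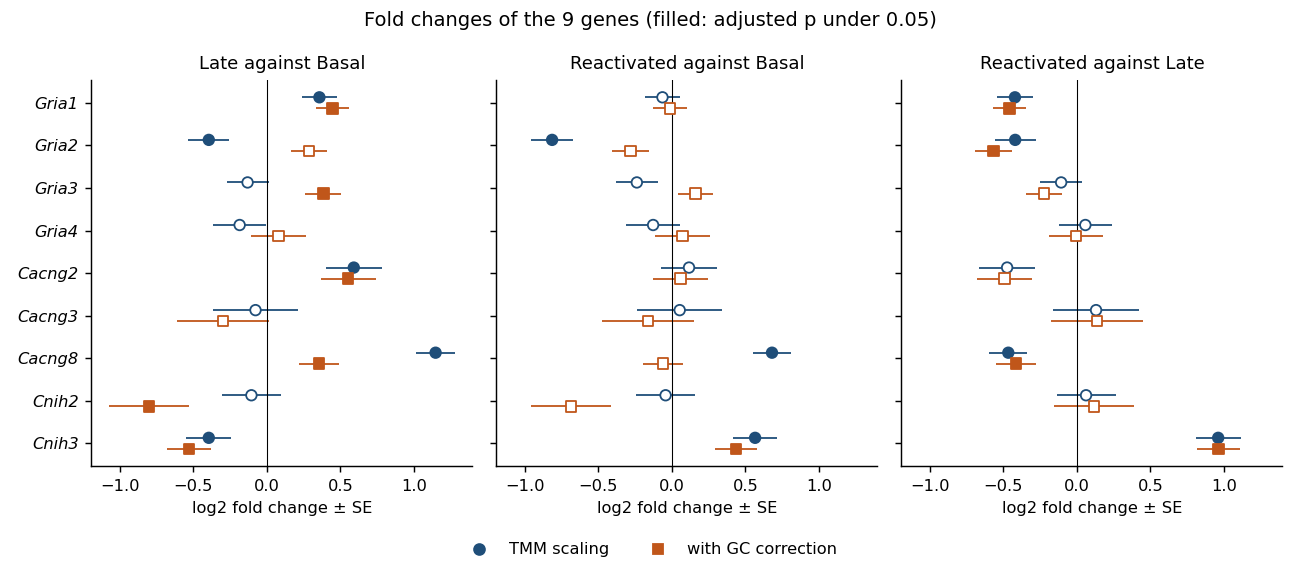
Log2 fold changes (x axis, ± SE) of the 9 genes in 3 comparisons, from the edgeR fit (circles) and from the fit with GC correction (squares), filled where the adjusted p was below 0.05. Cnih3 stands at 0.96 in both fits in Reactivated against Late, whereas Gria2 changes sign between the fits in Late against Basal.

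Gria1 encodes the subunit that is inserted into synapses during potentiation. Its normalized counts were 10357, 11074 and 10942 for Basal, 11050, 10652 and 12126 for Early, 13872, 13552 and 14047 for Late, and 10787, 10960 and 9220 for Reactivated. The 3 Late libraries lay above the other 9. Gria1 rose in Late against Basal by 0.36 ± 0.12 on the log2 scale (1.28-fold, adjusted p = 0.0229), and with GC correction by 0.45. It fell in Reactivated against Late by 0.42 ± 0.12 (adjusted p = 0.0203), and with GC correction by 0.46 (adjusted p = 0.00903). In Late against Early its log2 fold change of 0.29 had an adjusted p of 0.0607, although the libraries did not overlap. That difference passed with GC correction (0.40, adjusted p = 0.0128), with DESeq2 (adjusted p = 0.0196) and with limma voom (adjusted p = 0.0307). Both calls depend on single libraries. The one against Basal ended without Basal 1 (0.29), Late 1 (0.36) or Late 3 (0.35), and the one of Reactivated against Late ended without any one of Late 1 (-0.42), Late 2 (-0.44), Late 3 (-0.41) or Reactivated 3 (-0.35). When every library was set to an equal total, the rise against Basal became -0.49, the difference of Late from Early -0.45 and that of Reactivated from Late -0.07 (adjusted p = 0.703). Under upper quartile factors neither call of Gria1 passed. The rise against Basal was 0.13 (adjusted p = 0.347) and the difference of Reactivated from Late -0.30 (adjusted p = 0.0594).

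Gria2 encodes the subunit that limits calcium entry. Its normalized counts were 14756, 15128 and 11558 for Basal, 15253, 14492 and 13642 for Early, 10904, 10208 and 10404 for Late, and 6703, 8586 and 8268 for Reactivated. The groups did not overlap apart from Basal and Early, and all Reactivated libraries were lowest. Gria2 fell in Late against Basal by 0.39 ± 0.14 on the log2 scale (adjusted p = 0.0301) and in Reactivated against Basal by 0.81 ± 0.14 (adjusted p = 0.000659). Against Early it fell by 0.46 ± 0.14 in Late (adjusted p = 0.0164) and by 0.88 ± 0.14 in Reactivated (adjusted p = 0.00130). Its transcript has the lowest GC content of the 9. With GC correction the Late differences became 0.29 against Basal and 0.22 against Early, and the Reactivated ones -0.28 and -0.35, and none of the 4 passed.

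In Reactivated against Late Gria2 fell by 0.42 ± 0.14 (adjusted p = 0.0436), and with GC correction by 0.57 (adjusted p = 0.00424). Without GC correction this call was weak. It ended in 10 of the 12 fits that left out 1 library, at values from -0.49 without Reactivated 2 to -0.32 without Reactivated 1. The exceptions were Basal 3 and Early 3. It also ended with equal library totals (-0.05, adjusted p = 0.841) and under upper quartile factors (-0.30, adjusted p = 0.142). The call against Basal in Late ended without Basal 1 (-0.38), Basal 2 (-0.33), Late 1 (-0.42), Late 2 (-0.37) or Late 3 (-0.39), and that against Early in Late without Early 1 (-0.42) or Late 2 (-0.44).

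Gria3 is a subunit gene on the X chromosome. Its normalized counts were 2442, 2200 and 2310 for Basal, 3034, 3131 and 2415 for Early, 1955, 1993 and 2397 for Late, and 1728, 2135 and 2028 for Reactivated. Early was the highest group, with 2 of its libraries above all others. Against Early, Gria3 fell by 0.43 ± 0.14 on the log2 scale in Late (adjusted p = 0.0241) and by 0.54 ± 0.14 in Reactivated (adjusted p = 0.0144). These differences were 0.11 and -0.11 with GC correction, and neither passed. In Late against Basal Gria3 was at -0.13 and did not pass, while with GC correction it was called at 0.38 (adjusted p = 0.0192). The calls against Early ended without Early 1 (-0.39 in Late, -0.50 in Reactivated) or Early 2 (-0.37 and -0.47), and the Late one also without Late 1 (-0.38) or Late 2 (-0.39).

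Gria4, a subunit gene with high expression in interneurons, passed in none of the 6 comparisons. Its normalized counts ranged from 703 to 1238 for Basal, from 967 to 1289 for Early, from 823 to 881.5 for Late and from 816 to 992 for Reactivated. Early lay above Late in all libraries, with a log2 fold change of -0.39 ± 0.18 in Late against Early (adjusted p = 0.0955). With GC correction this value was -0.09. It was called by limma voom with array weights (-0.48, adjusted p = 0.00222), under upper quartile factors (-0.62, adjusted p = 0.0118) and with equal totals (-1.16, adjusted p = 0.000203).

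Within a library the balance of the 4 subunit genes does not depend on scaling between libraries. As a share of the summed Gria counts per exon kilobase, Gria1 made up 49.6% ± 2.61 for Basal, 48.4% ± 3.58 for Early, 61.0% ± 0.378 for Late and 58.8% ± 4.24 for Reactivated (SD, n = 3 each). Gria2 made up 34.9% ± 3.84, 34.2% ± 1.49, 25.6% ± 0.822 and 24.7% ± 2.75 in the same order. For both genes every Late and Reactivated library lay on one side of every Basal and Early library. Each of those pairs gave an exact two-sided permutation p of 0.1, which is the lowest that 3 against 3 libraries can reach (adjusted p = 0.218 over 24 tests). Gria3 made up 9.93% to 13.0% and Gria4 3.46% to 4.66% on average.

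**Figure D4:**
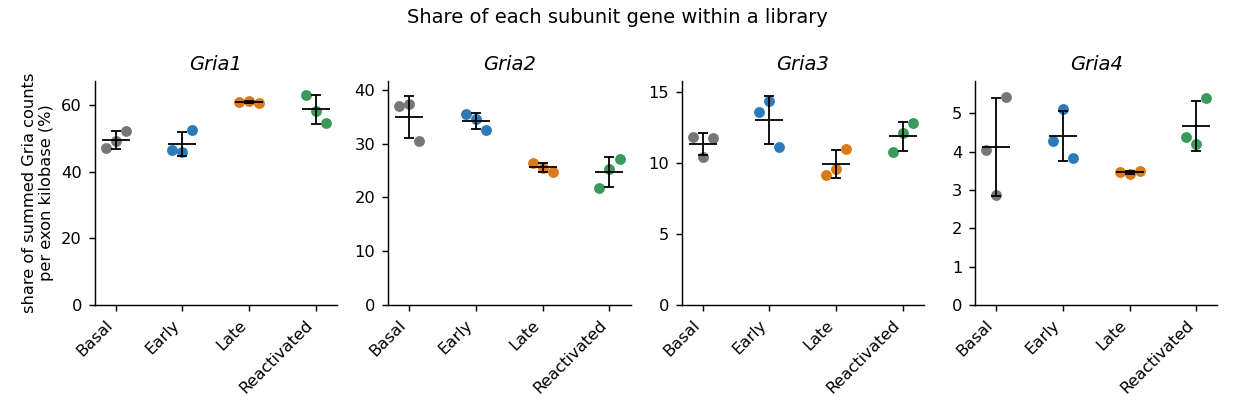
Share of each subunit gene in the summed Gria counts per exon kilobase, in percent (y axis from 0), by group. Points are libraries, marks the mean and bars the SD of 3 libraries. Gria1 is at 46.0% to 52.5% in Basal and Early and at 54.7% to 63.2% in Late and Reactivated.

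The raw count ratio of Gria1 to Gria2 was 0.702 to 0.947 for Basal, 0.724 to 0.889 for Early, 1.27 to 1.35 for Late and 1.12 to 1.61 for Reactivated. The ratio, which is not adjusted for length, was below 1 in all 6 Basal and Early libraries and above 1 in the other 6. The fitted log2 change of this ratio was 0.75 both in Late and in Reactivated against Basal. With GC correction it was 0.16 and 0.27, so the size of the shift depends on that correction. Between Late and Reactivated the ratio differed by 0.00 on the log2 scale, or 0.11 with GC correction, as both genes were lower in Reactivated.

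Cacng8 encodes the TARP that is most abundant in the hippocampus. Its normalized counts were 302, 329 and 369 for Basal, 326, 324 and 378 for Early, 673, 758 and 789 for Late, and 524, 556 and 526 for Reactivated. Late was above Reactivated, and both were above Basal and Early, with no overlap. Cacng8 rose in Late against Basal by 1.15 ± 0.13 on the log2 scale (2.22-fold, adjusted p = 9.41e-06) and against Early by 1.11 ± 0.13 (adjusted p = 1.72e-05). In Reactivated it rose by 0.68 ± 0.13 against Basal (adjusted p = 0.00140) and by 0.64 ± 0.13 against Early (adjusted p = 0.00423). Its transcript has the highest GC content of the 9. With GC correction the Late rises were 0.35 (adjusted p = 0.0450) and 0.40 (adjusted p = 0.0311), and the Reactivated values -0.06 and -0.02, which did not pass. With the replicate number as a block beside that correction, the Late rise against Basal was 0.36 and no longer passed (adjusted p = 0.0582). With equal library totals it was 0.32 and did not pass either (adjusted p = 0.0929).

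From Late to Reactivated Cacng8 fell by 0.47 ± 0.13 on the log2 scale (adjusted p = 0.0186), and with GC correction by 0.41 (adjusted p = 0.0364). That call ended without Late 2 (-0.45), Late 3 (-0.42) or Reactivated 3 (-0.45). It ended as well with equal totals (-0.12, adjusted p = 0.599) and under upper quartile factors (-0.35, adjusted p = 0.0597). No single library ended the other calls of Cacng8.

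Cacng2, or stargazin, is the founding TARP, known from the cerebellum. Its normalized counts were 205, 250 and 249 for Basal, 254, 232 and 309 for Early, 419, 363 and 282 for Late, and 200, 307 and 255 for Reactivated. Late lay above Basal in all libraries and overlapped the other groups. Cacng2 rose in Late against Basal by 0.59 ± 0.19 on the log2 scale (1.51-fold, adjusted p = 0.0195), and with GC correction by 0.55 (adjusted p = 0.0267). This call ended without Basal 1 (0.47), Late 1 (0.46) or Late 2 (0.57), and with equal totals it became -0.27. Under upper quartile factors the rise was 0.36 and did not pass (adjusted p = 0.111). The fold change of Cacng2 in Reactivated against Late was -0.47 ± 0.19 (adjusted p = 0.0904).

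Cacng3, a TARP of the cortex and hippocampus, passed in none of the comparisons of the main test. Its normalized counts ranged from 100 to 218 over the 12 libraries, and the ranges of all 4 groups overlapped. The largest SE of its 6 log2 fold changes was 0.29, so changes of that size, and some larger ones, could not be told from 0. In Late against Early limma voom with array weights called it (-0.46, adjusted p = 0.0426). Its value in Late against Basal ran from -0.92 to 2.11 over the alternative settings.

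Cnih3 encodes a cornichon protein of hippocampal AMPA receptors. Its normalized counts were 286, 310 and 344 for Basal, 311, 366 and 302 for Early, 209, 246 and 261 for Late, and 402, 531 and 458 for Reactivated. The 3 Reactivated libraries were the highest of the 12 and the 3 Late libraries the lowest. Cnih3 rose in Reactivated against Late by 0.96 ± 0.15 on the log2 scale (1.95-fold, adjusted p = 0.000390), with the same estimate after GC correction (adjusted p = 0.000271). In each of 31 alternative fits, single libraries left out among them, it kept this direction and passed, at 0.79 to 1.31. It was the 1 call among the 20 made for the 9 genes for which this held. The Lars2 share of the counts moved with this difference, at 0.604% ± 0.307 in Late and 4.08% ± 0.536 in Reactivated with no overlap, and its part was not tested.

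Against the first groups the differences of Cnih3 were smaller. It rose in Reactivated by 0.57 ± 0.15 against Basal (adjusted p = 0.00916) and by 0.51 ± 0.15 against Early (adjusted p = 0.0239). With GC correction these values were 0.43 (adjusted p = 0.0305) and 0.37 (adjusted p = 0.0804). With equal totals both calls ended, at 0.09 (adjusted p = 0.736) and 0.11 (adjusted p = 0.706), and under upper quartile factors the one against Early ended at 0.40 (adjusted p = 0.0648). In Late it fell by 0.39 ± 0.15 against Basal (adjusted p = 0.0450) and by 0.45 ± 0.15 against Early (adjusted p = 0.0275), and with GC correction by 0.53 and 0.59. The call of Late against Basal ended without Basal 2 (-0.40), Basal 3 (-0.32), Early 1 (-0.40), Late 1 (-0.31), Late 2 (-0.41) or Reactivated 3 (-0.39). The call of Late against Early ended without Early 2 (-0.36), Late 1 (-0.36) or Late 2 (-0.47), and that of Reactivated against Early without Early 1 (0.47), Early 3 (0.44) or Reactivated 2 (0.40).

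Cnih2, the other cornichon gene, passed in none of the comparisons. Its normalized counts ranged from 138 to 224 for Basal, from 172 to 262 for Early, from 172 to 177 for Late and from 161 to 201 for Reactivated, and the groups overlapped. In Reactivated against Late its log2 fold change was 0.06 ± 0.20. Its transcript is rich in GC, and with GC correction it was called lower in Late against Basal (-0.80, adjusted p = 0.0273), in Late against Early (-0.97, adjusted p = 0.0123) and in Reactivated against Early (-0.85, adjusted p = 0.0384).

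The partner genes were also set against the subunits within each library. The log2 ratio of the summed TARP counts to the summed Gria counts was -5.26 ± 0.0940 for Basal, -5.26 ± 0.0463 for Early, -4.46 ± 0.0446 for Late and -4.47 ± 0.0820 for Reactivated. All Late and Reactivated libraries lay above all others. The log2 ratio of cornichon to Gria counts was -5.79 ± 0.0348, -5.77 ± 0.153, -6.05 ± 0.105 and -5.03 ± 0.0781 in the same order, highest in Reactivated and lowest in Late with no overlap of either with any other group. The exact two-sided permutation p was 0.1 for each pair of groups without overlap, the smallest possible (adjusted p = 0.133 over 12 tests). These summed ratios were not corrected for GC content, but ratios of single genes were. Cacng8 over Gria1 changed by 0.79 in Late against Basal on the log2 scale, and by -0.09 with GC correction. Cnih3 over Gria1 changed by 1.38 in Reactivated against Late, and by 1.42 with GC correction.

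Cnih3 and Cacng8 moved in opposite directions between Late and Reactivated. The raw count ratio of Cnih3 to Cacng8 was 0.311 to 0.330 in Late and 0.766 to 0.956 in Reactivated, and 0.799 to 1.13 in Early and 0.930 to 0.948 in Basal. From Late to Reactivated the fitted log2 ratio changed by 1.43, and by 1.38 with GC correction. Reactivated overlapped Basal and Early in this ratio.

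**Figure D5:**
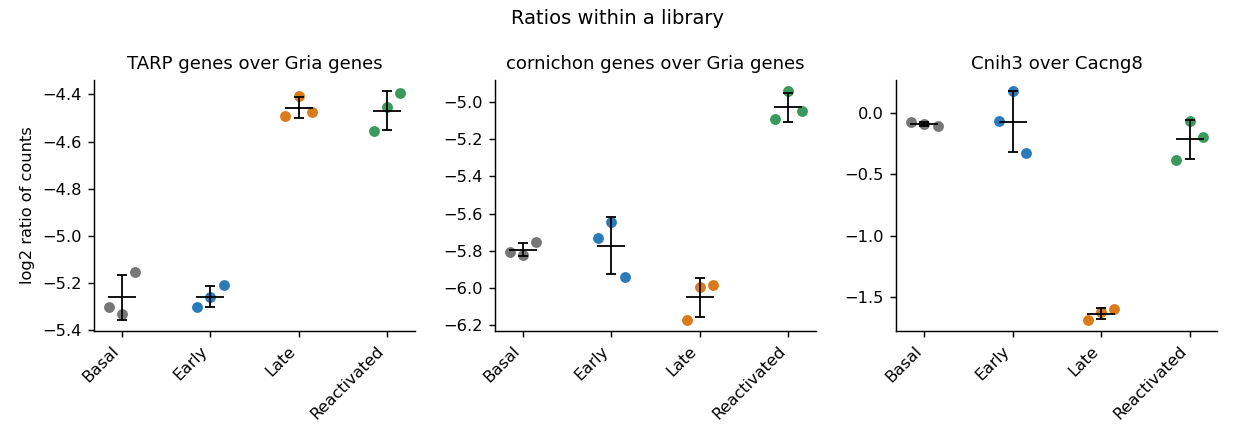
Log2 ratios of raw counts within a library (y axis) for TARP over Gria genes, cornichon over Gria genes and Cnih3 over Cacng8. Points are libraries, marks the mean and bars the SD of 3 libraries. The TARP ratio is at -4.46 in Late and -4.47 in Reactivated, while the cornichon ratio is at -6.05 and -5.03.

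Levels of different genes were compared per kilobase of annotated exon. In Basal the order was Gria1 (1865 ± 65.9 normalized counts per kb), Gria2 (1317 ± 187), Gria3 (426 ± 22.3), Cacng8 (176 ± 17.9), Gria4 (154 ± 42.5), Cnih2 (141 ± 33.4), Cnih3 (114 ± 10.5), Cacng3 (57.1 ± 19.3) and Cacng2 (42.6 ± 4.71). From Cacng8 to Cnih3 the libraries of neighbours in this order overlapped, as did those of Cacng3 and Cacng2. Gria1 and Gria2 held the first places in all 4 groups. In Late Cacng8 reached 390 ± 31.8 per kb, beside Gria3 at 389 ± 45, and in Reactivated Cnih3 reached 169 ± 23.6, above Gria4 at 141 ± 14.6 on average. These levels depend on the annotated length, which is 1897 bases for Cacng8 and 10486 for Gria2. They were not corrected for GC content. The log2 fold change in Late against Basal was 1.15 for Cacng8 and -0.13 for Gria3, and with GC correction 0.35 and 0.38.

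Libraries also differed in markers of cell types, and the part of this in the results above was not tested. In bulk nuclei, fewer cells of a type and less RNA per cell cannot be told apart. Beside the marker counts below, 6.03% of all genes passed in Early, 49.1% in Late and 39.4% in Reactivated against Basal. In Reactivated against Late 22.6% of all genes passed. All 10 neuronal markers were detected in every group, with summed normalized counts of 13539 to 14307 for Basal, 17169 to 19226 for Early, 21513 to 23548 for Late and 24469 to 28475 for Reactivated. Of 14 granule cell markers 13 fell in Early, 10 fell and 1 rose in Late and 13 fell in Reactivated against Basal, and the sum was 13043 to 19513 for Basal, 4098 to 5007 for Early, 5155 to 8097 for Late and 3023 to 6058 for Reactivated. Of 10 CA1 markers 9, 10 and 10 rose against Basal, from a sum of 989 to 1527 to sums of 2674 to 2833, 3890 to 4514 and 3582 to 4499. Of 11 CA3 and CA2 markers 6, 8 and 9 rose, and their sum was 1473 to 1924 for Basal, 3185 to 4697 for Early, 5024 to 5815 for Late and 3870 to 4220 for Reactivated. Between Late and Reactivated Cnih3, Cacng8, Gria1 and Gria2 differed. There 2 of the CA1 markers rose and 1 fell, and 3 granule cell markers rose and 4 fell. Of the CA3 and CA2 markers 1 rose and 2 fell, and their sums did not overlap (5024 to 5815 in Late, 3870 to 4220 in Reactivated). Among them is the kainate receptor gene Grik4, which fell from 1780 ± 151 in Late to 815 ± 58.2 in Reactivated. The median log2 fold change of the 11 markers was 0.06.

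Markers of glia moved between Late and Reactivated as well, where 22.6% of all genes passed. Of 8 oligodendrocyte precursor markers 5 rose and 0 fell in Reactivated against Late, with sums of 220 to 255 for Late, 460 to 841 for Reactivated, 385 to 603 for Basal and 398 to 461 for Early. Of 10 astrocyte markers 6 rose and 1 fell, with sums of 3678 to 5117 for Late, 3998 to 8494 for Reactivated, 2873 to 5339 for Basal and 3264 to 5292 for Early. Of 10 oligodendrocyte markers tested 5 rose and 1 fell. Sums over all 11 listed were 4777 to 9989 for Late, 2960 to 7791 for Reactivated, 1973 to 2621 for Basal and 1704 to 2224 for Early. Of 6 microglia markers tested 1 rose and 2 fell. Sums over all 10 listed were 5692 to 9762 for Late, 856 to 2127 for Reactivated, 720 to 827 for Basal and 688 to 834 for Early. Cx3cr1 at 3841 and Itgam at 3820 made up most of the Late sum, while P2ry12 was at 14.8 there. Of 19 interneuron markers 1 rose and 1 fell in Reactivated against Late, with sums of 3874 to 3967 for Late, 4244 to 4578 for Reactivated, 5696 to 6903 for Basal and 3890 to 6045 for Early. Of these markers none was at 0 in a whole group. Of 10 vessel markers Ly6c1 was at 0 in Late. The vessel sums were 108 to 570 for Basal, 87.7 to 125 for Early, 76.9 to 88.7 for Late and 96.8 to 266 for Reactivated.

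Other genes of the receptor complex were counted from lists of related genes. Their counts stand beside the shares of all genes that passed, 6.03% in Early against Basal, 49.1% in Late against Basal, 39.4% in Reactivated against Basal, 42.3% in Late against Early, 26.2% in Reactivated against Early and 22.6% in Reactivated against Late, and none is read as particular to a list. Of 23 further auxiliary and assembly genes, 0 rose and 9 fell in Late against Basal, with a median log2 fold change of -0.44 (all genes -0.03). Over the alternative settings the number called in Late against Basal ran from 0 to 20, and the share of all genes from 1.31% to 66.8%. In Early against Basal 0 rose and 1 fell, in Reactivated against Basal 1 and 3, in Late against Early 1 and 6, in Reactivated against Early 1 and 3, and in Reactivated against Late 2 and 0. The genes that rose in Reactivated against Late were Frrs1l and Abhd6. Frrs1l, which assembles AMPA receptors in the endoplasmic reticulum, stood at 622 ± 154 for Basal, 828 ± 160 for Early, 291 ± 21.6 for Late and 1191 ± 175 for Reactivated. It rose from Late to Reactivated by 2.03 ± 0.20 on the log2 scale (4.08-fold, adjusted p = 5.89e-06), so it was, like Cnih3, lowest in Late and highest in Reactivated. Abhd6, which can hold back receptor delivery, stood at 136 ± 29.8 in Late and 211 ± 35.6 in Reactivated (log2 fold change 0.62 ± 0.19, adjusted p = 0.0273). Shisa9, an auxiliary subunit known from dentate granule cells, was at 776 ± 95.3 in Basal and 341 to 451 on average in the other groups, and it fell in all 3 against Basal. Prrt2, a presynaptic protein that also binds AMPA receptors, fell by 0.69 in Late and 0.70 in Reactivated against Basal on the log2 scale.

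Of 33 trafficking and scaffold genes, 4 were up and 0 down in Early against Basal, 13 and 7 in Late, and 14 and 5 in Reactivated. Against Early 8 rose and 6 fell in Late and 10 and 2 in Reactivated, and in Reactivated against Late 6 and 3. Over the alternative settings the number called ran from 0 to 27 in Late and from 5 to 24 in Reactivated against Basal. The share of all genes ran from 1.31% to 66.8% and from 3.99% to 45.1% there. Nptxr, the membrane-bound pentraxin that gathers AMPA receptors, stood at 214 ± 28.3 for Basal, 303 ± 146 for Early, 259 ± 24.7 for Late and 1058 ± 194 for Reactivated (4.09-fold over Late, adjusted p = 8.94e-05). Rab5a, a GTPase of endocytosis, rose 3.37-fold in Late and 3.11-fold in Reactivated against Basal. Myo6, the motor of endocytic vesicles, rose 3.77-fold in Late, and Cplx2, a regulator of vesicle fusion, 4.08-fold. Both fell from Late to Reactivated, by 0.78 and 1.04 on the log2 scale.

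Of 21 kinase, phosphatase and editing genes, 5 were up and 1 down in Early against Basal, 8 and 4 in Late, and 8 and 1 in Reactivated. Against Early 5 rose and 6 fell in Late and 3 and 0 in Reactivated, and in Reactivated against Late 3 and 1. The number called in Late against Basal ran from 1 to 17 over the alternative settings, beside 1.31% to 66.8% of all genes. Adarb2, an RNA-editing family member without known editing activity and also a marker of interneurons, fell in Early, Late and Reactivated against Basal (1588 ± 168 in Basal, 666 to 853 on average elsewhere). Prkcb, a kinase of the protein kinase C family, rose in all 3, from 1875 ± 153 in Basal to 4254 ± 625 in Early. Ppp1cc, a catalytic subunit of protein phosphatase 1, was highest in Late at 927 ± 94.9, and at 497 ± 61.7 in Reactivated.

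Of 16 genes of other ionotropic glutamate receptors and their partners, 2 were up and 4 down in Early against Basal, 4 and 5 in Late, and 3 and 3 in Reactivated. Against Early 5 rose and 4 fell in Late and 1 and 5 in Reactivated, and in Reactivated against Late 1 and 3. In Late against Basal the alternative settings called 1 to 15 of them, beside 1.31% to 66.8% of all genes. When Basal and Early were fitted alone with the replicate number as a block, Early against Basal had 5 calls among the auxiliary genes, 10 among the trafficking genes, 10 among the kinase genes and 7 here, beside 17.8% of all genes, and 0 of the 9 receptor and partner genes passed. The kainate receptor gene Grik2 fell from 1923 ± 323 in Basal to 718 ± 134 in Late and 687 ± 73.6 in Reactivated. Grik3 and Grik4 were highest in Late, at 1726 ± 109 and 1780 ± 151, and fell from there in Reactivated by 1.06 and 1.13 on the log2 scale. Neto1, an auxiliary protein of kainate receptors, rose in all 3 against Basal, to 1456 ± 48.4 in Late.

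Genes with the most similar pattern over the 12 libraries were found by the root mean square difference of centred log2 library-scaled counts among 10315 other genes. Dscaml1 was nearest to Gria1 at 0.0567, where the median over all candidates was 0.424. Atm (0.0964) and Celf2 (0.0993) were nearest to Gria2, and Fbxo22 (0.0692) and Ralgps1 (0.110) to Gria3. Cspg5 (0.0904) and Mapk8ip2 (0.124) were nearest to Cacng8, and Ctbp2 (0.121) and Dtx4 (0.127) to Cacng2. Oaz2 (0.137) and Aar2 (0.159) were nearest to Cnih3. For Gria4 they were Cetn3 and Phkb, for Cacng3 Lmbrd2 and Rpn1, and for Cnih2 Ybey and Rbx1, at 0.104 to 0.183. All these values share the libraries, their depth and the GC trend.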

How the data were processed

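The authors deposited 1 table of counts per gene symbol and library, whose name calls it normalized. Its values are whole numbers with differing totals and were treated as raw counts. Per the submitters' processing notes, Bowtie2 2.0, Cufflinks 2.2, DESeq2 and the build mm9 were used, without stated roles. How reads were counted, on which annotation and with which strandedness, is not given in the sources used here. A stranded total RNA kit is named in one label and SmartSeq2 in another.

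Genes with at least 10 counts in at least 3 libraries were tested with edgeR 4.0.16 (TMM, quasi-likelihood, 4 group means over 12 libraries, two-sided), in R 4.3.3. The test was checked on simulated counts. GC content and exon lengths came from GENCODE M21 on GRCm38, and GC content was found for 98.7% of tested genes. The GC correction subtracts a lowess curve (span 0.3) in each library. The prior count for log2 values was 2. Same-numbered Basal and Early libraries deviated together from their group means (r = 0.143 to 0.484 in 3 pairs). The main test left them unpaired, and the labels give no reason to pair them. Some libraries of different number matched as well, with r = 0.223 for Basal 1 and Early 2. For Basal 2, r was 0.168 with Early 1 and 0.143 with Early 2, so the check does not single out pairing by number. In the other pairs of groups r for the same number was -0.217 to 0.166, not over 0.1 in every pair. No blocked fit was made of 2 of those groups alone. Between Late and Reactivated r was 0.0590 to 0.166, and each library there matched best the one of its own number. A blocked fit of Basal and Early alone was added after the data were seen. Alternatives used DESeq2 1.42.0 and limma 3.58.1. Levels are mean ± SD, fold changes ± SE.

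All 9 genes were named, with up to 4 genes per related list by smallest p over the 4 groups and the 2 nearest in pattern (mean of at least 50). Some genes that this rule named are left out here. The genes and lists were chosen with earlier results of these data known. Counts limit precision only as far as counting error goes, since PCR copies are not independent molecules.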

Additional observations from a re-analysis of the deposited data

How the results depend on the processing

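The 20 called fold changes of the 9 genes were recomputed in 31 other settings, 620 values in all. Of these 477 kept direction and call, 124 kept direction and lost the call, and 19 changed sign. Of 1063 values for the 34 uncalled fold changes, 46 kept direction and gained a call, and 88 changed sign, 3 of these with a call. Each count of called genes is given with the share of all genes called. The number in Early against Basal was 2 with array weights (16.5%). In Late against Basal it was 1 for unscaled values (28.5%), 3 under upper quartile factors (51.9%) and 0 when the Rn45s share entered as covariate (1.31%), also together with the replicate block (1.82%). In Reactivated against Basal it was 0 as deposited (14.4%), 1 with GC correction (35.9%) and 0 in both Rn45s fits (3.99% and 4.52%). In Late against Early it was 7 with the same total (62.6%), 1 as deposited (29.8%), 0 in both Rn45s fits (0.60% and 0.925%), 9 with array weights (64.5%) and 8 without Basal 3 and Early 3 together (47.7%). In Reactivated against Early it was 1 as deposited (10.1%), 1 with GC correction (20.3%), also with the block (19.1%), and 0 in both Rn45s fits (0% and 0.0319%). In Reactivated against Late it was 1 under upper quartile factors (24.6%), 1 under equal totals (31.7%), 1 unscaled (11.1%) and 2 in both Rn45s fits (11.9% in each). In the test over 4 groups it was 2 as deposited (36.2%), 3 in both Rn45s fits (23.8% and 25.4%), 8 with array weights (75.0%) and 8 without Basal 3 and Early 3 together (62.9%). Leaving out 1 library gave 0 to 0 genes in Early against Basal, 1 to 5 in Late against Basal, 3 to 3 in Reactivated against Basal, 1 to 6 in Late against Early, 2 to 4 in Reactivated against Early, 1 to 4 in Reactivated against Late and 4 to 6 over the 4 groups.

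Sign changes against Basal in Late were Gria1 (-0.49) and Cacng2 (-0.27) with the same total, Gria2 with GC correction (0.29, or 0.29 with the block) and in the Rn45s fits (0.31 and 0.27), Gria3 with GC correction (0.38 and 0.38) and Cnih3 with the Rn45s covariate (0.0054). Against Early in Late they were Gria1 with the same total (-0.45), Gria2 with GC correction (0.22 and 0.22) and the Rn45s covariate (0.20 and 0.16), and Gria3 (0.11 and 0.11, and 0.31 and 0.32). Cacng8 in Reactivated was at -0.061 and -0.061 against Basal and at -0.016 and -0.016 against Early with GC correction. The cause was not tested. With the same total the median of all genes moved to -0.87 in Late against Basal, -0.46 in Reactivated against Basal and 0.38 in Reactivated against Late. The Rn45s share goes with the groups, and the share and the group cannot be told apart.

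With the replicate block in the fit of all 4 groups 0 of the 9 genes passed in Early against Basal (Gria3 at 0.30, adjusted p = 0.345). In a fit of Basal and Early alone with the block, chosen after the data were seen, 0 passed as well (Gria3 at 0.29, adjusted p = 0.0512). The block thus changed no call of the 9 genes in this comparison. Of all genes 17.8% passed in that fit, and 4.98% when the 2 groups were fitted alone without the block. The main test took no numbers as pairs. In 12 of 36 cases a library matched best the same-numbered library of another group, with 3 libraries to choose from in each case. Between Late and Reactivated every library did so. With the block 3 genes were called in Reactivated against Late in place of 4 (Gria2 at -0.42, adjusted p = 0.0573).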
